A study of Mus musculus with 6 samples.

Results

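The genes studied here are the 10 that carry iron into the cell, store it, release it and sense it: Tfrc, Tfr2, Steap3, Slc11a2, Slc40a1, Fth1, Ftl1, Ncoa4, Aco1 and Ireb2. They were taken by symbol from the expression tables of 6 RNA-Seq libraries, which together list 17060 genes, and all 10 were listed in every library. Lineage-negative cells, the BM fraction that holds the stem and progenitor cells of blood, were purified from WT mice and grown in an EPO-containing medium that drives erythroblast formation. The cells received NUP-17d, an inhibitor of Plek2, or the vehicle DMSO for 48 hours, with 3 cultures per condition. All cultures share the WT genotype and the medium. The study's methods name C57BL/6 as the strain of the WT mice used for the drug screen and EPO injections, and give neither strain nor age for the RNA-Seq cultures in particular. No source states whether the 3 cultures of a condition came from separate animals, so the p-values measure the spread between these cultures only.

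Erythroblasts take up more iron than almost any other cell, because each makes a large amount of heme for hemoglobin. Iron bound to transferrin enters through the transferrin receptor in endosomes, is reduced there by Steap3 and crosses into the cytosol through Slc11a2. Iron that is not used at once is stored in ferritin, a shell built of heavy and light chains, and Ncoa4 carries ferritin to lysosomes, where its iron is set free. The iron regulatory proteins IRP1, made from Aco1, and IRP2, made from Ireb2, bind a hairpin called the iron-responsive element when iron is scarce. Bound in the 5′ UTR, they hold back translation of ferritin and of the exporter ferroportin, and bound in the 3′ UTR of Tfrc, they protect the transcript from decay.

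Hairpins are shown because their place matters: bound in a 3′ UTR they can act on RNA level, in a 5′ UTR mainly on translation. A match alone does not show how iron controls a member. The hairpins were searched for as a C, then 5 bases, the loop CAGTGN, and 5 bases that pair with the first 5, G-T pairs allowed. The search ran on the transcript strand of annotated UTRs of protein-coding transcripts. The positions are of the mouse build mm10, capitals mark the loop, and 6 bases are shown on either side of the stretch from the C to the end of the stem. The 5′ UTRs of both ferritin chains and of Slc40a1 hold 1 match each, at chr19:9982732-9982760 on the plus strand, chr7:45459779-45459807 on the minus strand and chr1:45925465-45925493 on the minus strand.
Fth1: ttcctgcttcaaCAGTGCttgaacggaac
Ftl1: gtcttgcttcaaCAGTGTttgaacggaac
Slc40a1: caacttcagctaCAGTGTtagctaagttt

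The 3′ UTR of Tfrc holds 4 matches, all on the plus strand, at chr16:32631219-32631247, chr16:32631598-32631626, chr16:32631663-32631691 and chr16:32631710-32631738, in the order listed. The 3′ UTR of Slc11a2 has a match only when 1 extra unpaired base is allowed in the 3′ side of the stem, at chr15:100395152-100395181 on the minus strand, in 1 annotated transcript. The deposited counts are per gene, so that transcript is not measured apart from the other transcripts of Slc11a2.
Tfrc site 1: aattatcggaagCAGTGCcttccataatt
Tfrc site 2: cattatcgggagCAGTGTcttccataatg
Tfrc site 3: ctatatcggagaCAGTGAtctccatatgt
Tfrc site 4: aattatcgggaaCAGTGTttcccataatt
Slc11a2: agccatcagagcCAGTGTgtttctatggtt

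Such matches are rare. The form without the extra base was found in the 5′ UTRs of 28 of 20544 genes (0.136%) and in the 3′ UTRs of 127 of 20920 genes (0.607%), and the form with it in the 3′ UTRs of 233 genes (1.11%). No match was found for Tfr2, Steap3, Ncoa4, Aco1 or Ireb2, which says only that these letters are not in the UTRs searched. A match is a description of the sequence and not a measurement of protein binding.

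The libraries held 20278433 to 20419018 expected counts in DMSO and 20076409 to 20170197 in NUP-17d, an expected count being the estimated number of reads of a gene. Counts are given as CPM, counts divided by the library total and scaled up, after trimmed mean of M-values (TMM) scaling, which corrects for library composition. The TMM factors were 0.8865 to 0.9302 in DMSO and 1.082 to 1.107 in NUP-17d. Hemoglobin transcripts took 19.1% ± 1.04 of the counts in DMSO and 12.2% ± 0.723 in NUP-17d (SD, n = 3 each). The 20 erythroid markers examined were all present and all fell, by a median of 0.63 on the log2 scale. Their log2 fold changes ranged from -1.03 to -0.24, and their summed level was 28433 to 30749 CPM in DMSO and 17676 to 18656 CPM in NUP-17d. In bulk RNA, fewer cells of a type and less RNA per cell cannot be told apart. The summed level of 12 macrophage markers was 648 to 707 CPM in DMSO and 699 to 772 CPM in NUP-17d, and that of 10 neutrophil and monocyte markers 4382 to 4568 and 4467 to 4747 CPM, so both ranges overlapped, and markers of nonerythroid cells were measured in every culture. Of these lists, 2 macrophage markers rose, 2 fell and Timd4 was near 0 in all cultures, and 2 neutrophil and monocyte markers rose and 1 fell. The sum of 5 megakaryocyte markers was higher in NUP-17d, at 372 to 393 against 327 to 356 CPM, and that of 6 mast cell and basophil markers lower, at 285 to 291 against 296 to 311 CPM, although 2 of these 6 rose and 2 fell. Stem and progenitor markers (233 to 244 CPM in DMSO, 241 to 246 CPM in NUP-17d) overlapped, and lymphoid markers summed to 7.22 to 8.12 CPM in DMSO and 6.15 to 6.83 CPM in NUP-17d. The part of the fall in erythroid RNA, and of these other cell types, in the results for the iron genes was not tested.

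By transcript level per length, the iron genes spanned almost 3 orders of magnitude, and ferritin led. In DMSO, the FPKM (reads scaled by transcript length and library total) divided by the TMM factor was 5420 ± 159 for Ftl1, 2826 ± 56.2 for Fth1, 441 ± 9.23 for Tfrc and 170 ± 1.87 for Ncoa4. The remaining 6 genes lay far lower, from 27.5 ± 0.612 for Steap3 through 15.0 ± 0.596 for Slc11a2 and 12.5 ± 0.246 for Slc40a1 to 8.15 ± 0.346 for Aco1 (SD, n = 3). Ireb2, at 11.4 ± 0.236, and Tfr2, at 11.4 ± 0.638, overlapped, and every other neighbour in the order was separate. In NUP-17d the first 5 places were the same. Slc40a1, at 13.2 ± 0.617, stood above Slc11a2, at 12.3 ± 0.148, and it was Tfr2, at 9.97 ± 0.536, and Aco1, at 9.57 ± 0.264, that overlapped.

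**Figure D1:**
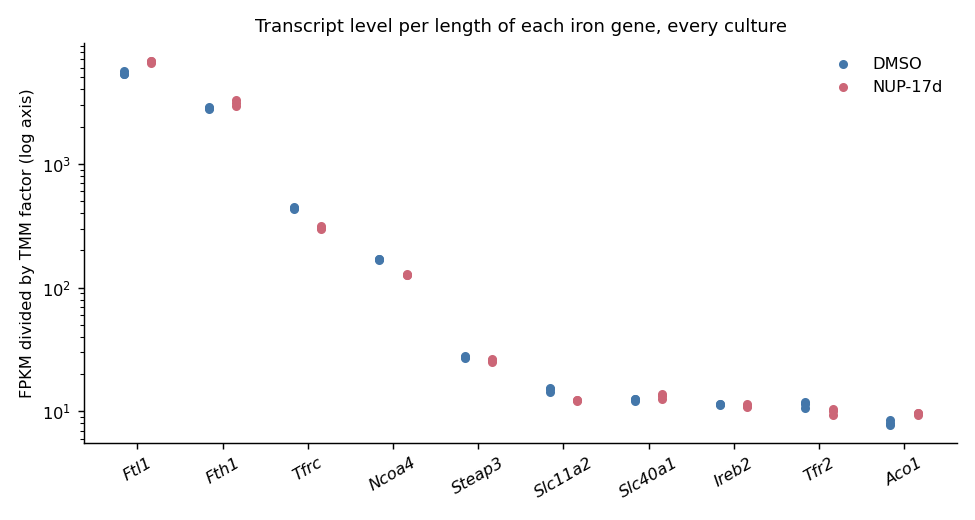
FPKM divided by the TMM factor, on a log axis, for each of the 10 iron genes in the 3 DMSO and the 3 NUP-17d cultures (1 point per culture). The ferritin chains Ftl1 and Fth1 lie highest, Tfrc and Ncoa4 between 100 and the ferritin chains, and the other 6 genes below 30; Slc11a2 lies above Slc40a1 in DMSO and below it in NUP-17d.

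NUP-17d cultures held less RNA for the receptor that brings iron in and for the carrier that frees it from ferritin, and more for the ferritin chains, though the call for the heavy chain Fth1 was lost with any of 3 libraries left out. Of the 10 genes, 4 fell (Tfrc, Ncoa4, Slc11a2 and Tfr2), 3 rose (Ftl1, Aco1 and Fth1) and 3 did not pass the test (Steap3, Ireb2 and Slc40a1), with the value of Tfr2 above 0, and that of Slc11a2 no longer past the test, when only the library totals set the scale. The test was the quasi-likelihood test of edgeR, with p-values adjusted after Benjamini and Hochberg for the 12306 genes tested, and across all of these 35.3% passed at 0.05, 16.4% higher and 18.9% lower in NUP-17d. The groups did not overlap in 8 of the 10 genes, against 46.0% of all tested genes. The median log2 fold change of the 10 was -0.062, beside 0.014 for all tested genes.

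The choice of scaling moved the genes together. With library totals in place of TMM, the median log2 fold change of all genes went from 0.014 to 0.28, and directions are given below on the TMM scale, with the log2 fold change for library totals beside them. Tfr2, Steap3 and Ireb2 had log2 fold changes below 0 with TMM and above 0 with library totals. Tfrc and Ncoa4 fell, and Ftl1, Fth1 and Aco1 rose, with either scaling.

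**Figure D2:**
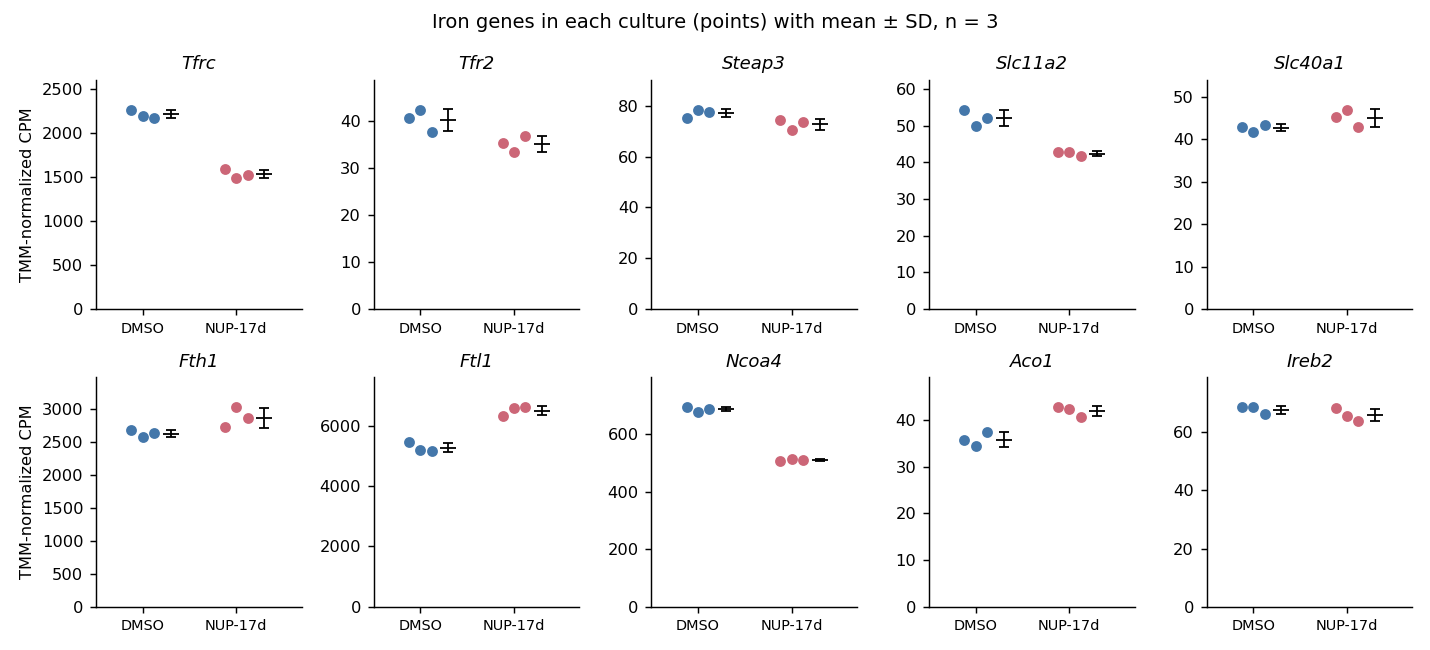
TMM-normalized CPM of each iron gene (axes from 0) in 3 DMSO and 3 NUP-17d cultures, with points for cultures and black bars for mean ± SD. On this scale the groups are apart in 8 genes, beside 46.0% of all tested genes, and overlap in Slc40a1 and Ireb2. With library totals in place of TMM, the direction of Tfr2, Steap3 and Ireb2 is opposite.

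Tfrc, on chromosome 16 at 32608896 to 32632794 (Entrez 22042), encodes transferrin receptor 1, the main route of iron into erythroblasts. It measured 2261, 2195 and 2171 CPM in the DMSO cultures and 1586, 1491 and 1524 CPM in the NUP-17d cultures. Every NUP-17d culture lay well below every DMSO culture. The mean went from 2209 ± 46.9 to 1534 ± 48.2 CPM (SD, n = 3), a log2 fold change of -0.53 ± 0.0365 (SE) with an adjusted p of 6.16e-12 by edgeR, and with library totals it was -0.26. Of all tested genes, 96.0% had a higher fold change than Tfrc. The fall was smaller than the median fall of the erythroid markers by 0.10 on the log2 scale, and lay within their range of -1.03 to -0.24.

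Tfr2 (chromosome 5, 137569822 to 137588081, Entrez 50765) encodes transferrin receptor 2, which binds transferrin and also associates with the EPO receptor. It measured 40.6, 42.3 and 37.7 CPM in DMSO and 35.2, 33.3 and 36.7 CPM in NUP-17d. The groups did not overlap, but the lowest DMSO and the highest NUP-17d culture lay close to each other. The log2 fold change was -0.20 ± 0.0525 (adjusted p = 0.00412 by edgeR) and with library totals 0.069 (adjusted p = 0.275), so the direction depended on the scaling. The ratio of the genes within a library does not depend on it. The FPKM of Tfrc was 39.2, 36.6 and 40.5 times that of Tfr2 in DMSO and 31.7, 31.7 and 29.1 times in NUP-17d. All NUP-17d ratios were lower than all DMSO ratios.

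Steap3, the ferrireductase of the erythroid endosome (chromosome 1, 120226414 to 120271081, Entrez 68428), measured 75.3, 78.5 and 77.5 CPM in DMSO and 74.3, 70.3 and 73.5 CPM in NUP-17d. The groups were apart by little, and the gene did not pass the test, with a log2 fold change of -0.085 (95% interval -0.17 to -0.0024, adjusted p = 0.103 by edgeR). With library totals the value was 0.18 and passed (adjusted p = 0.00107).

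Slc11a2, the divalent metal transporter that passes the reduced iron to the cytosol (chromosome 15, 100387898 to 100424209, Entrez 18174), measured 54.4, 50.0 and 52.2 CPM in DMSO and 42.8, 42.7 and 41.7 CPM in NUP-17d. All 3 NUP-17d cultures lay below all DMSO cultures. The log2 fold change was -0.30 ± 0.0452 (adjusted p = 6.88e-06 by edgeR), and with library totals it was -0.032 and did not pass (adjusted p = 0.554). The FPKM of the reductase Steap3 relative to Slc11a2 was 1.84 ± 0.113 in DMSO and 2.11 ± 0.0817 in NUP-17d, with no overlap.

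Slc40a1 encodes ferroportin, the only known iron exporter of the cell (chromosome 1, 45908070 to 45926532, Entrez 53945). It measured 43.0, 41.8 and 43.4 CPM in DMSO and 45.3, 47.0 and 42.8 CPM in NUP-17d. The groups overlapped, and the gene did not pass, with a log2 fold change of 0.076 (95% interval -0.021 to 0.17, adjusted p = 0.221 by edgeR). With library totals it was 0.34 and passed (adjusted p = 3.75e-06). Relative to the uptake receptor, ferroportin had an FPKM of 0.0429 ± 0.00271 per FPKM of Tfrc in NUP-17d and 0.0283 ± 0.000819 in DMSO, without overlap.

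Ftl1 encodes the ferritin light chain, which helps the iron core form (chromosome 7, 45457944 to 45459886, Entrez 14325). It measured 5461, 5200.2 and 5179 CPM in DMSO and 6326, 6585 and 6613 CPM in NUP-17d. The groups were far apart, and the log2 fold change was 0.30 ± 0.0391 (adjusted p = 6.67e-07 by edgeR), or 0.57 with library totals. Among all tested genes, 10.1% had a higher fold change.

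Fth1 encodes the ferritin heavy chain, the ferroxidase that oxidizes iron for storage (chromosome 19, 9980600 to 9985111, Entrez 14319). It measured 2677, 2570 and 2631 CPM in DMSO and 2723, 3023 and 2856 CPM in NUP-17d. The NUP-17d cultures were all higher, but the first of them lay just above the DMSO range. The log2 fold change was 0.13 ± 0.0397 (adjusted p = 0.0140 by edgeR). Without DMSO 2 it was 0.11 (adjusted p = 0.0735), without DMSO 3 0.13 (0.0600) and without NUP-17d 2 0.088 (0.101). With library totals it was 0.39.

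The balance of the chains can be read from their ratio. The FPKM of Ftl1 was 1.95, 1.93 and 1.88 times that of Fth1 in DMSO and 2.22, 2.08 and 2.21 times in NUP-17d, without overlap. Together, Fth1 and Ftl1 took 0.720% ± 0.00292 of all expected counts in DMSO and 1.03% ± 0.0333 in NUP-17d (SD, n = 3), values not corrected for library composition. Ferritin genes have many near-identical copies elsewhere in the genome, and the tables held 0 rows for such copies, so how reads shared with them were treated is not known. The counts of both ferritin genes were whole in all libraries.

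Ncoa4, the receptor that delivers ferritin to the lysosome, fell with little spread between cultures (chromosome 14, 32159879 to 32179855, Entrez 27057). It measured 693, 678 and 689 CPM in DMSO and 506, 514 and 511 CPM in NUP-17d. The cultures of each group lay close together and the groups far apart. The mean went from 686 ± 7.81 to 510.2 ± 3.81 CPM, a log2 fold change of -0.43 ± 0.0331 (adjusted p = 5.11e-11 by edgeR), or -0.16 with library totals (adjusted p = 5.46e-05). Per FPKM of Fth1, the Ncoa4 level was 0.0603 ± 0.000561 in DMSO and 0.0411 ± 0.00181 in NUP-17d.

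Aco1, the cytosolic aconitase that becomes IRP1 when it lacks its iron-sulfur cluster (chromosome 4, 40143265 to 40199009, Entrez 11428), measured 35.6, 34.4 and 37.4 CPM in DMSO and 42.7, 42.5 and 40.6 CPM in NUP-17d. All NUP-17d cultures were higher, with a log2 fold change of 0.23 ± 0.0486 (adjusted p = 0.000527 by edgeR), or 0.50 with library totals. Ireb2, whose product IRP2 is broken down when iron is plentiful (chromosome 9, 54862658 to 54912534, Entrez 64602), measured 68.5, 68.5 and 66.1 CPM in DMSO and 68.1, 65.5 and 63.9 CPM in NUP-17d. The groups overlapped, and the log2 fold change of -0.040 did not pass (95% interval -0.12 to 0.045, adjusted p = 0.485 by edgeR). With library totals it was 0.23 and passed (adjusted p = 0.000133). The Aco1 FPKM per FPKM of Ireb2 was 0.713 ± 0.0447 in DMSO and 0.858 ± 0.0144 in NUP-17d, without overlap.

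**Figure D3:**
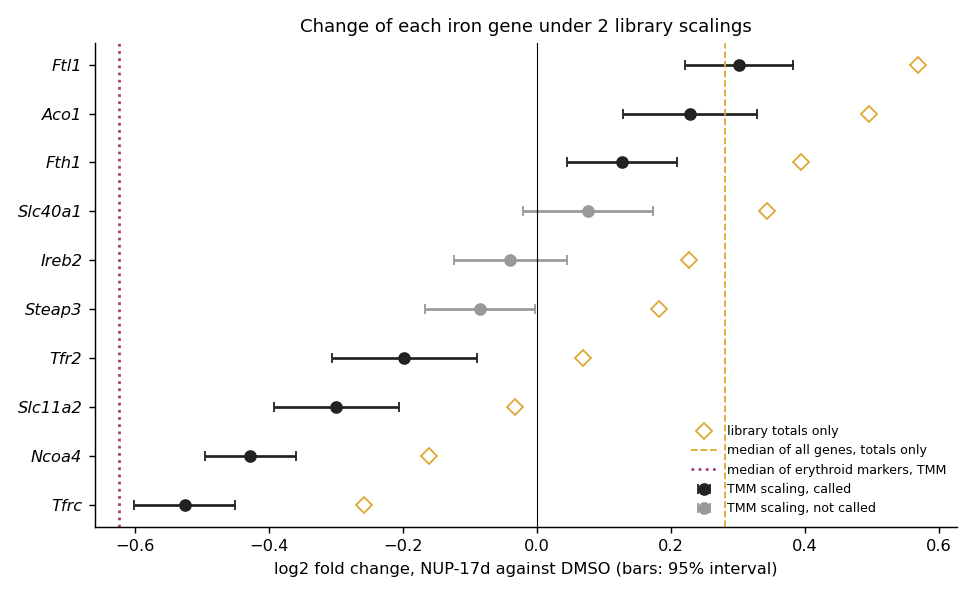
Log2 fold change of each iron gene in NUP-17d against DMSO with TMM scaling (filled circles with 95% intervals, grey where the gene did not pass) and with library totals only (open diamonds). Tfrc and Ncoa4 lie below 0 and Ftl1, Fth1 and Aco1 above 0 with either scaling, and Tfr2, Steap3 and Ireb2 cross 0. With TMM, all 10 lie above the erythroid marker median of -0.63 (dotted line). Tfrc, Ncoa4 and Slc11a2 lie within the range of these markers, -1.03 to -0.24 (not drawn).

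Ratios within a library are free of the scaling, and 7 were compared. The receptor relative to the store had the log2 difference farthest from 0 among them. The FPKM of Tfrc per FPKM of Fth1 was 0.157, 0.158 and 0.153 in DMSO and 0.108, 0.0914 and 0.0989 in NUP-17d. That difference was -0.65 ± 0.0709 (SE). In all 7 ratios the groups did not overlap, and each gave p = 0.1 in a two-sided exact permutation test (adjusted p = 0.1). No smaller p can be had from 3 against 3 cultures, so none could pass at 0.05. The share of all gene pairs whose ratios separate in this way was not computed. Among single tested genes, the groups did not overlap in 46.0%. The ratios are not independent of each other, because Tfrc and Fth1 each enter several of them. The ratios were not corrected for cell composition, and the erythroid markers fell in the same cultures.

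**Figure D4:**
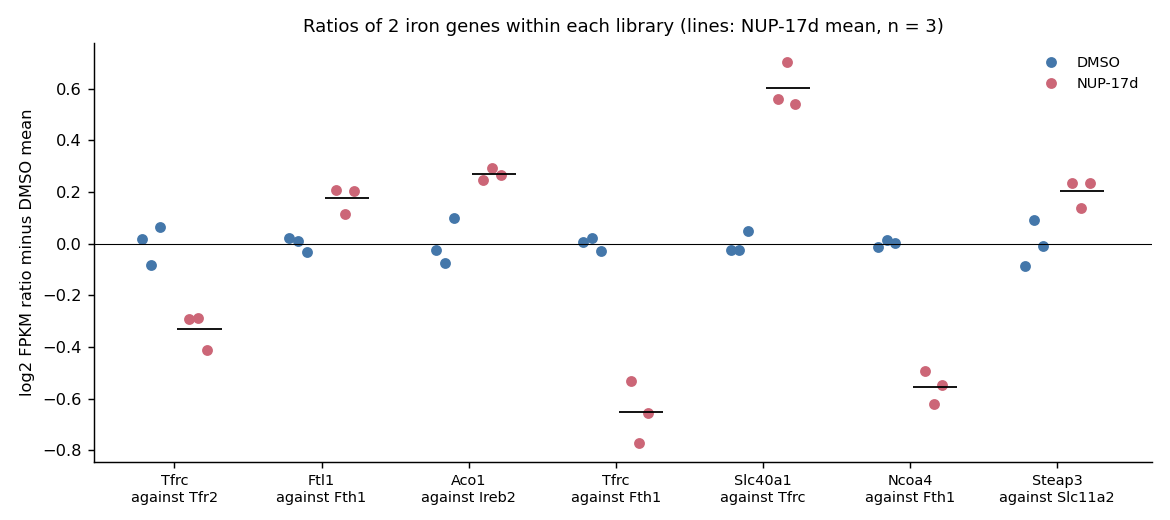
Log2 ratio of the FPKM of 2 iron genes in each library, with the DMSO mean set to 0 (blue, DMSO; red, NUP-17d; lines, NUP-17d mean, n = 3). Tfrc against Fth1 shows the lowest NUP-17d mean, at -0.65, and Slc40a1 against Tfrc the highest, at 0.60.

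Genes with a hairpin match passed the test in both directions, as tested genes did in general. Their median log2 fold changes lay near the 0.014 of all tested genes. The counts of matching genes below include the members, and their difference from all tested genes was not tested. Among the members, the 5′ UTR matches belonged to Fth1 and Ftl1, which rose, and Slc40a1, which did not pass, and the 3′ UTR matches to Tfrc and Slc11a2, which fell. Of the 21 tested genes with the strict form in a 5′ UTR, 4 rose and 6 fell (beside 16.4% and 18.9% of all tested genes), with a median log2 fold change of 0.034. Of the 94 with it in a 3′ UTR, 20 rose and 18 fell, with a median of -0.0076. Of the 164 with the extra base in a 3′ UTR, the form found in Slc11a2, 26 rose and 38 fell, with a median of -0.0078. Of the 28 with the extra base in a 5′ UTR, 3 rose and 3 fell, with a median of 0.0078. Alas2, the erythroid enzyme that begins heme synthesis and has the strict form in its 5′ UTR, went from 4441 ± 164 to 2625 ± 103 CPM, a log2 fold change of -0.76 (adjusted p = 3.07e-14 by edgeR), or -0.49 with library totals.

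The wider iron genes were described by 5 lists with 58 genes, of which 45 were tested and 21 passed, beside 35.3% of all tested genes. Of the 45, 15 had log2 fold changes below 0 with TMM and above 0 with library totals. Among the genes named below, Picalm, Prnp, Tax1bp1, Erfe, Alas2, Bach1, Srxn1 and Gclm lay within the erythroid marker range of -1.03 to -0.24 (TMM). Skp1a and Cdc42bpa, which also fell, lay above that range. In the transferrin cycle and endosomal iron list, 18 of 21 genes were tested, 4 rose and 4 fell, with a median log2 fold change of 0.020. Picalm, a clathrin adaptor needed to internalize the transferrin receptor, measured 913, 873 and 886 CPM in DMSO and 623, 609 and 622 CPM in NUP-17d, a log2 fold change of -0.53 (adjusted p = 1.57e-12 by edgeR), or -0.26 with library totals, the same as Tfrc to 2 decimals on either scale. The genes that rose included Mcoln1, a lysosomal cation channel that passes iron, from 36.8 ± 1.40 to 56.0 ± 2.13 CPM. They also included Slc11a1, the phagosomal metal transporter of macrophages and neutrophils, from 71.4 ± 2.77 to 95.6 ± 8.57 CPM, and Vps35, a retromer subunit in endosomal sorting, from 199 ± 5.45 to 240 ± 5.59 CPM. Their log2 fold changes were 0.61, 0.42 and 0.26, with edgeR adjusted p-values of 5.73e-11, 1.68e-07 and 1.07e-06, and with library totals they were 0.87, 0.69 and 0.53. Tf, which encodes transferrin itself, was listed in no library, and Hfe, at 11.8 to 14.6 CPM in DMSO and 12.1 to 14.1 CPM in NUP-17d, overlapped between the groups.

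In the list of chaperones, ferritinophagy and iron sensing, 15 of 18 genes were tested, 1 rose and 3 fell, with a median of 0.035. Prnp, the prion protein, to which ferrireductase activity has been ascribed, fell from 1864 ± 30.3 to 1187 ± 9.58 CPM. Tax1bp1, an autophagy receptor that acts with Ncoa4 in ferritin turnover, fell from 732 ± 14.0 to 550 ± 6.15 CPM. Their log2 fold changes were -0.65 and -0.41, beside -0.43 for Ncoa4, with edgeR adjusted p-values of 3.23e-14 and 1.45e-10. With library totals they were -0.38 and -0.15, beside -0.16 for Ncoa4. Lcn2, a siderophore-binding protein abundant in neutrophils, rose by a log2 fold change of 0.20 (adjusted p = 0.00301 by edgeR), which was 0.47 with library totals, and without DMSO 2 was 0.13 and did not pass (adjusted p = 0.0551). Skp1a, a subunit of the ligase that degrades IRP2, had a log2 fold change of -0.13 (adjusted p = 0.0174 by edgeR), which was 0.14 with library totals and -0.082 without DMSO 1 (adjusted p = 0.145). Fbxl5, the iron-sensing subunit of that ligase, did not pass (log2 fold change 0.11, adjusted p = 0.150 by edgeR), nor did the cytosolic iron chaperones Pcbp1 and Pcbp2.

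Of the 7 systemic iron hormones and their regulators, only Erfe was tested and the other genes were at or near 0. Erfe encodes erythroferrone, which erythroblasts secrete to lower hepcidin, and it went from 74.2, 70.8 and 73.4 CPM in DMSO to 48.1, 44.5 and 47.2 CPM in NUP-17d (log2 fold change -0.64, adjusted p = 3.16e-12 by edgeR, or -0.38 with library totals). Of 5 other transcripts known to carry an iron-responsive element, 4 were tested and 2 fell, with a median of -0.10. Beside Alas2 this was Cdc42bpa, with a log2 fold change of -0.16 (adjusted p = 0.0121 by edgeR) that was 0.10 with library totals. It did not pass with DESeq2 (-0.17, adjusted p = 0.0648). In the hairpin search, Alas2 had a match and Epas1 had one with the extra base. None was found for Cdc42bpa, Cdc14a or Hao1, which says only that these letters are not in the UTRs searched. Beyond these genes and the members, Bach1 and Rab11a of the wider lists and the erythroid marker Epb42 had a match with the extra base in the 3′ UTR.

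Among the 7 heme and oxidant response genes, 2 rose and 4 fell, with a median of -0.14. Hmox1, heme oxygenase 1, which frees iron from heme, measured 154, 153 and 158 CPM in DMSO and 322, 334 and 329 CPM in NUP-17d, a log2 fold change of 1.08 (adjusted p = 3.07e-18 by edgeR), or 1.35 with library totals. Bach1, the heme-binding repressor of Hmox1 and of the ferritin genes, went from 204 ± 5.97 to 150 ± 5.58 CPM, a log2 fold change of -0.45 (adjusted p = 2.20e-10 by edgeR), or -0.18 with library totals. Srxn1 and Gclm, which serve the defense against peroxides and the synthesis of glutathione, fell by 0.36 and 0.31 on the log2 scale (edgeR adjusted p = 1.97e-09 and 6.27e-08), but with library totals Srxn1 was at -0.097 and Gclm at -0.042, which did not pass (adjusted p = 0.220). Nfe2l2, which encodes the activator NRF2 of these genes, did not pass (adjusted p = 0.874 by edgeR).

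**Figure D5:**
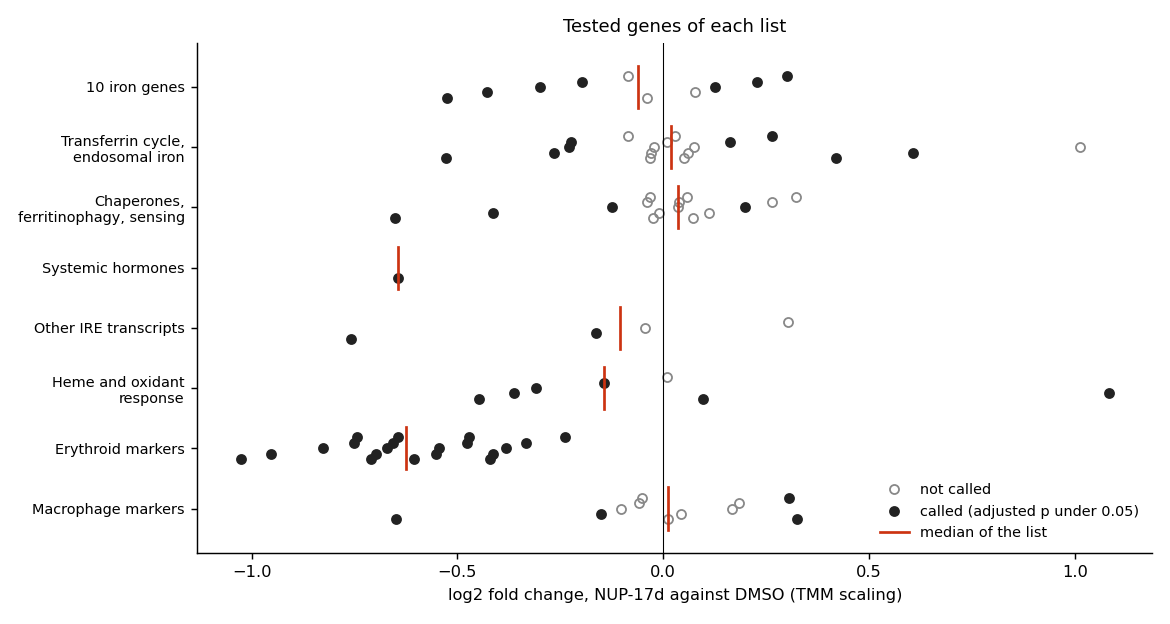
Log2 fold change (TMM scaling) of each tested gene of the 10 iron genes, the 5 wider lists, the erythroid markers and the macrophage markers, with filled points for genes that passed and red lines for the median. All 20 erythroid markers lie below 0, whereas the iron lists spread to either side; Tfr2, Steap3, Ireb2 and 15 genes of the wider lists, Skp1a and Cdc42bpa among them, lie below 0 here and above 0 with library totals.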

How the data were processed

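RNA from 3 DMSO and 3 NUP-17d cultures was measured, and the labels gave each library's condition and number. For each library the authors deposited expected counts (estimated reads per gene, not normalized, 27.8% to 28.5% not whole) and FPKM values (counts scaled by transcript length and library total). Genes missing from a table were taken as 0. The study's methods name a stranded Illumina kit, whereas the labels describe random priming and DNBseq sequencing. The build mm10 comes from the submitters' processing notes, and the aligner and counter are not given in the sources used here. Counting by strand is not stated.

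Expected counts were rounded, filtered with filterByExpr, scaled by TMM and compared with edgeR 4.0.16 in R 4.3.3 (quasi-likelihood test, ~group, Benjamini-Hochberg adjustment, threshold 0.05). Intervals are 95% and come from the same fit. FPKM was divided by the TMM factor for levels per length, and ratios were compared by exact permutation tests. Alternatives were DESeq2 1.42.0, library totals only, size factors of the relative log expression type, no filter, no hemoglobin genes (12 removed), limma 3.58.1 on log2 values of FPKM with 1 or 0.1 added (genes of mean FPKM 1 or more), a replicate block and leaving out each library. Hairpins were sought in UTRs of protein-coding transcripts in the basic GENCODE annotation of mm10. Gene positions are from RefSeq for the same build.

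The members and lists were chosen with earlier results of these data known. A gene of the lists is not reported here and is left out of their counts. All 10 members and, from each list, up to 4 genes with the lowest p among those that passed are named, with any other gene a sentence needs. The lowest expected count of a member in any library was 645, for Aco1.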

Additional observations from a re-analysis of the deposited data

How the results depend on the processing

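Tfrc, Ncoa4, Ftl1 and Aco1 kept direction and call under all 14 alternatives, and no ratio reversed. Most other changes came with the scaling. With library totals only, 9115 of 12306 tested genes passed (8458 higher, 657 lower), beside 4346 (2019 and 2327) with TMM. Of the 10543 genes tested by limma, 8494 passed (7895 and 599) on log2(FPKM + 1) and 8480 (7880 and 600) on log2(FPKM + 0.1). Of the genes that passed, 92.8% were higher with totals, 92.9% with either limma fit and 46.5% with TMM. With DESeq2 1276 were higher. Under those 3 scalings without composition correction, 6 iron genes were higher and 2 lower, and of the wider lists 27 genes were higher and 7 lower with totals (34 called) and 25 higher and 7 lower with either limma fit (32 called), beside 7 and 14 with TMM. Among the named genes, the signs that changed were, for totals, log2(FPKM + 1) and log2(FPKM + 0.1) in that order, Tfr2 (0.069, 0.068, 0.074), Steap3 (0.18, 0.18, 0.19), Ireb2 (0.23, 0.21, 0.23), Skp1a (0.14, 0.14, 0.15) and Cdc42bpa (0.10, 0.080, 0.099). Slc11a2 lost and Slc40a1 gained its call under the same 3, Cdc42bpa also lost its call with DESeq2, and Fth1 lost it without DMSO 2, DMSO 3 or NUP-17d 2. Leaving out each library gave 3713 to 4008 calls. With a replicate block, 4543 genes passed. Same-numbered cultures deviated together with correlations of 0.0335, -0.0210 and -0.0324, so the numbers were not taken to pair the cultures. The planned sum of ferritin copies gave no value, because the tables held 0 such rows. Depth limits Steap2 and Cybrd1, which were tested at under 1 CPM. Tf, Ftmt, Steap1, Steap4, Heph, Hephl1, Hao1 and the hormones other than Erfe were also under 1 CPM and were not tested.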
